A study of Mus musculus with 47 samples.

Results

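The cytosolic ribosomal protein genes were followed through the demyelination and recovery of mouse brain white and grey matter. Members were taken by symbol: every gene named Rps or Rpl with a number, with or without a suffix a, x, l, l1 or y, together with Rpsa, Rplp0, Rplp1, Rplp2 and Fau. The rule found 85 genes, 33 of the small (40S) subunit and 52 of the large (60S) subunit, and used no measured value. Of these, 83 were among the 23393 genes of the acute table and 84 among the 21034 genes of the chronic tables. After a filter on low values 77 of the 14536 acute genes tested and 83 of the 17054 chronic genes tested were members.

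A ribosome is built from ribosomal RNA and one copy of most ribosomal proteins, which are made in the cytosol, carried to the nucleolus and assembled into the small subunit, which reads the mRNA, and the large subunit, which joins the amino acids. The mRNAs of these proteins are short and abundant, and most begin with a C and a run of pyrimidines, the terminal oligopyrimidine (TOP) tract, through which mTORC1 and LARP1 set how much of each is stored and translated. Their sequence is copied into the genome as a large number of processed pseudogenes, so that reads from one gene may match several places. In the brain they are expressed by every cell type, and oligodendrocytes draw on ribosomes to make myelin protein and lipid enzymes.

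The study fed cuprizone, a copper chelator that kills mature oligodendrocytes, to adult wild type C57BL/6 mice of both sexes, and measured polyadenylated RNA of dissected tissue in 47 libraries. In the acute arm, corpus callosum (CC) was taken at 3 weeks of cuprizone (3wk, 3 libraries, 1 female), after 5 weeks of cuprizone and 1 week of normal diet (5+1wk, 3 libraries, 1 female) and from a single 2-month female naïve mouse. In the chronic arm, CC, hippocampus (HP) and cortex (CTX) were taken at 12 weeks of cuprizone (12wk), after 4, 8 or 12 further weeks of normal diet (12+4wk, 12+8wk, 12+12wk), and from 8-month naïve mice, with 2 to 4 libraries per group and region and 40 in all. By their labels the 12+12wk groups held female libraries only, and the other chronic groups held both sexes. The labels give no age for the treated mice. The study states that feeding began from 8 weeks of age, so treated mice of the earlier chronic times were younger than the 8-month naïve mice. The acute treated mice were likewise not labelled as 2 months old. Age and treatment cannot be told apart where they differ together. The deposited values are log2 values scaled by the authors, with no counts, so the depth behind each value is unknown, and those of the chronic arm are centred for each gene on a value shared by the 3 regions. A chronic value of 0 is therefore a mid-level for that gene and says nothing about its abundance.

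The tract that marks this gene family is shown for the members with some of the largest differences below, beside the paralogues Rpl3l, Rpl39l and Rpl7l1, which did not share them. Each line gives the 12 bases before and the 18 bases from the RefSeq start of transcription (GRCm38.p6), on the strand of the gene, with a tract of a C and at least 4 further C or T in capitals where one began within 5 bases of that start.
Rps21, chr2:180257367-180257396, plus strand: cgaggacccgccCTCCTgcccaatagtgct
Rps10, chr17:27635227-27635256, minus strand: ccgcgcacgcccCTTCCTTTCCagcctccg
Rps12, chr10:23787192-23787221, minus strand: cgtcatgcggccaccgccggccttttcccc
Rplp2, chr7:141447639-141447668, plus strand: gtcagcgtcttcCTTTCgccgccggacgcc
Rpl35a, chr16:33056470-33056499, plus strand: gggcttgccttcCTCTTTCCgccatcttgg
Rpl3l, chr17:24727814-24727843, plus strand: tgttctagctctgtcatttgacctctggtg
Rpl39l, chr16:10170216-10170245, plus strand: ccaggcctttccggatttccggtggtcgcc
Rpl7l1, chr17:46782639-46782668, minus strand: aggctgcgcaagcgcagtagctgaagcacc

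Of the 85 members, 64 had a RefSeq promoter. A tract began within 5 bases of the start in 31 of them (48.4%), against 5718 of 27025 genes with a promoter (21.2%), and exactly at the start in 15 (23.4%) against 813 genes (3.01%). By subunit the tract was within 5 bases in 13 of 24 small subunit genes and 18 of 40 large subunit genes. Of the sequences printed, those of Rps12, Rpl3l, Rpl39l and Rpl7l1 held none within that distance. Among members not printed, Rpl32l and Rpl7a had a tract within that distance and were not called in the CC average below. Rpl22l1 also had a tract and was called lower. The printed choice therefore does not tell whether a tract goes with the difference. A match describes these letters at the annotated start and says nothing about where transcription began in these mice.

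The libraries were compared before the tests. Of the 15 markers of mature oligodendrocytes, 15 were higher in naïve CC than in naïve HP and than in naïve CTX, and 8 of 10 hippocampal markers were higher in HP than in CTX. Single libraries departed from this. The mean of the hippocampal markers was 1.30 to 1.38 in naïve HP, but 0.01 in HP 12+8wk replicate 2 and -0.19 in HP 12+12wk replicate 1. It was higher than in both of these in CTX naïve replicate 3 (0.63) and CTX 12+12wk replicate 2 (0.51). Comparisons that use these libraries carry this limit. In 8 of the 13 hippocampal libraries, RNAs specific to each sex were both raised, which did not occur in the other chronic regions. Of these 8, 4 are labelled female and 4 male, and without them 1 library is left in HP 12+12wk, a group labelled female only. The main comparisons that use HP are therefore given with and without these 8 libraries, except HP 12+8wk, which they empty. The 5+1wk replicate 1 stood apart from the other acute libraries in its relation to GC content, and replicate 1 of CTX 12+8wk stood apart from the other cortical libraries. The study states shorter reads and another instrument for the acute and cortical libraries than for chronic CC and HP, so between these, read length and region cannot be told apart.

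In chronic CC, ribosomal protein genes were lower after cuprizone than in naïve mice, in both subunits and in each of the 4 treated groups. At 12wk, 65 of the 83 members tested were lower and 0 higher (limma, adjusted p below 0.05 over all genes), against 9.65% of all genes called lower and 9.06% higher, and the median member fell by 0.63 on the log2 scale, while the median over all genes was 0.00. By subunit 28 of 33 small subunit genes (median -0.64) and 37 of 50 large subunit genes (median -0.61) were lower. With the 4 cuprizone groups averaged, 78 members were lower (33 of 33 small, median -0.57, and 45 of 50 large, median -0.54), against 14.5% of all genes lower and 13.7% higher, and 0 were higher. The nearest libraries of the 2 sides did not overlap for 75 of the 83 members, against 10.7% of all genes. A lower level in tissue RNA can come from fewer cells of a type or from less RNA per cell, and these cannot be told apart in bulk samples. The naïve mice were also older than the 12wk mice, and age cannot be told apart from treatment there.

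The library medians showed the same split. Over the members, naïve CC libraries lay between 0.56 and 0.90 and the 9 cuprizone libraries between 0.06 and 0.33. The small subunit genes ran from 0.60 to 0.96 in naïve CC and from 0.07 to 0.40 after cuprizone, and the large subunit genes from 0.54 to 0.86 and from 0.06 to 0.32. Both subunits therefore separated the naïve from the treated libraries with no overlap. The mean of the small subunit genes minus that of the large was 0.00 to 0.07 in naïve CC and -0.07 to 0.01 after cuprizone, so the 2 subunits differed from each other by far less than either differed between groups. The call at 12wk leaned on few libraries: without CC 12wk replicate 2, 11 members were called (2.56% of all genes), without replicate 1, 31 (3.11%), and without CC naïve replicate 1, 39 (5.62%), although the median stayed at -0.58 and -0.69 in the first 2 cases. In the average of the 4 groups, leaving out any 1 library left between 63 and 77 members lower. The share of all genes called lower was 14.5% in the full fit, and is not given for these smaller fits.

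**Figure D1:**
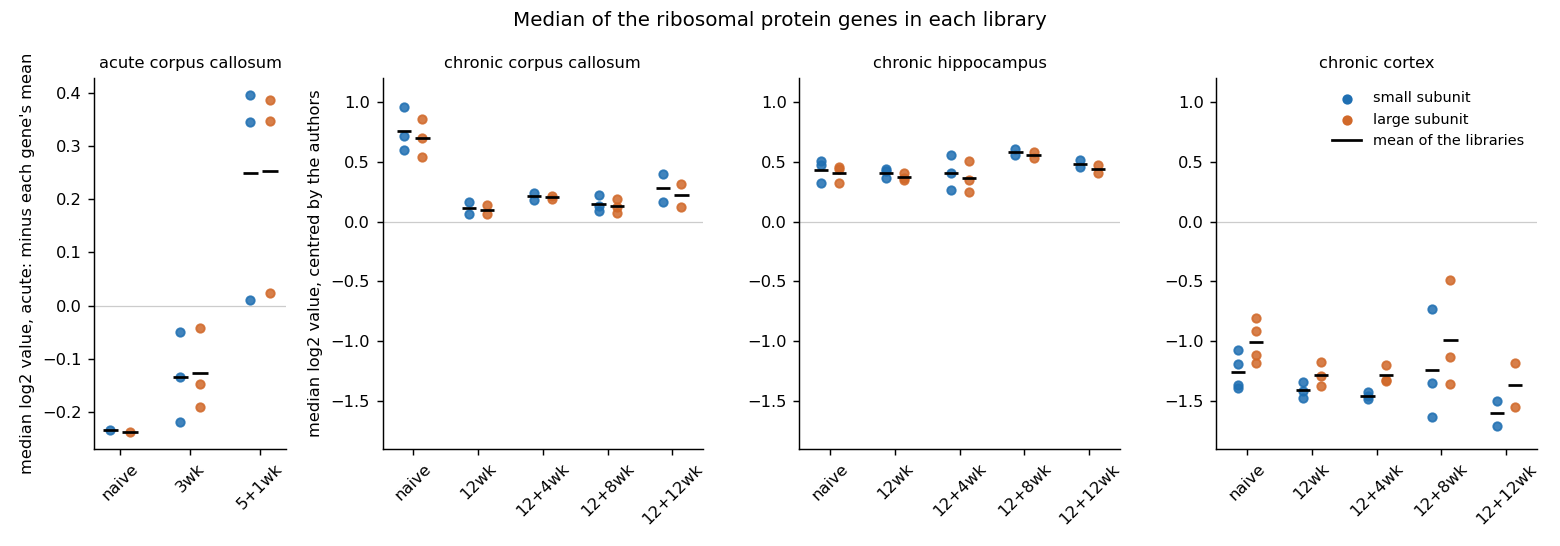
Median log2 value of the small (blue) and large (orange) subunit genes in each library, by group, with black bars for the mean of a group's libraries; acute values are relative to each gene's mean over the 7 libraries and chronic values are as centred by the authors. In chronic CC the naïve small subunit medians, 0.60 to 0.96, lie above all cuprizone libraries, 0.07 to 0.40, while the HP libraries lie between 0.25 and 0.61 and all cortical libraries lie below 0.

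Among the small subunit genes, Rps21 differed most. Its centred log2 values in CC were 0.87, 0.49 and 0.66 in naïve libraries, -0.16 and -0.32 at 12wk, -0.07 and -0.01 at 12+4wk, -0.24, -0.20 and -0.11 at 12+8wk, and -0.01 and 0.02 at 12+12wk. Every naïve value was above every treated value. Rps21 at 12wk was 0.531 times the naïve level (log2 difference -0.91, SE 0.18, limma adjusted p = 0.001), and the average over the 4 groups was -0.79 (SE 0.13, adjusted p = 9.3e-05).

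Rps12, a protein of the small subunit head, was at 1.30, 0.82 and 0.93 in naïve CC, at 0.25 and 0.16 at 12wk, 0.39 and 0.28 at 12+4wk, 0.20, 0.16 and 0.34 at 12+8wk and 0.42 and 0.37 at 12+12wk. The highest treated library lay well under the lowest naïve one. The average difference of Rps12 was -0.72 (SE 0.11, adjusted p = 3.3e-05). Rps10, also of the head, followed at -0.69 (SE 0.11, adjusted p = 7.9e-05), and its values ran from 0.69 to 1.09 in naïve CC and from 0.04 to 0.33 after cuprizone.

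Fau encodes a ubiquitin-like protein fused to a small subunit protein. Its values were 1.04, 0.72 and 0.91 in naïve CC, 0.22 and 0.12 at 12wk, 0.30 and 0.35 at 12+4wk, 0.21, 0.16 and 0.31 at 12+8wk and 0.42 and 0.25 at 12+12wk. The 2 sets of Fau values were apart in the same way, with an average difference of -0.63 (SE 0.12, adjusted p = 0.0004). Rpsa, a small subunit protein also known as a laminin receptor, changed by -0.48 (SE 0.12, adjusted p = 0.0044), from 0.83 to 1.19 in naïve CC to 0.28 to 0.71 after cuprizone. Rps19, the gene most often mutated in Diamond-Blackfan anaemia, fell by 0.64 (SE 0.12, adjusted p = 0.0002). Rps25, needed in cultured cells for translation from some viral internal ribosome entry sites, fell by 0.62 (SE 0.13, adjusted p = 0.00066).

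Of the large subunit genes, those of the P stalk, the lateral arm that recruits elongation factors, were lower in the CC average. Rplp2 was at 0.91, 0.50 and 0.74 in naïve CC, -0.04 and -0.26 at 12wk, 0.07 and -0.02 at 12+4wk, -0.04, -0.06 and 0.04 at 12+8wk and 0.18 and 0.18 at 12+12wk. The ranges did not meet. The average difference was -0.71 for Rplp2 (SE 0.14, adjusted p = 0.0006) and -0.60 for its partner Rplp1 (SE 0.14, adjusted p = 0.0015), and the difference of Rplp0, the stalk base, was -0.39 (SE 0.11, adjusted p = 0.0085). At 12wk alone these were -0.87, -0.73 and -0.46, each called, and all 3 were called at 12+8wk. At 12+4wk Rplp1 and Rplp2 were called and Rplp0 was not, and at 12+12wk none of them was.

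Rpl35a, a large subunit gene also mutated in Diamond-Blackfan anaemia, was at 0.85, 0.50 and 0.67 in naïve CC and between -0.17 and 0.13 in the treated libraries. Its average difference was -0.67 (SE 0.17, adjusted p = 0.0039), and at 12wk it was -0.83 (SE 0.23, adjusted p = 0.014). Rpl5 and Rpl11, which with 5S ribosomal RNA bind Mdm2 when ribosome assembly fails, fell by 0.47 (SE 0.09, adjusted p = 0.00054) and by 0.61 (SE 0.10, adjusted p = 6.8e-05). Rpl38, required in mouse embryos for translation of Hox mRNAs, fell by 0.65 (SE 0.15, adjusted p = 0.0022). Rpl10a fell by 0.32 (SE 0.11, adjusted p = 0.029), with 1 treated library reaching into its naïve range. Rpl10, an X-linked gene of the peptidyl transferase region, fell by 0.53 (SE 0.12, adjusted p = 0.0011).

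Where the rule held a gene and its close copy, the copies often differed. Rpl3, which lines the peptidyl transferase centre, was at 0.64, 0.41 and 0.48 in naïve CC and between -0.09 and 0.26 after cuprizone, an average difference of -0.44 (SE 0.10, adjusted p = 0.0013). Rpl3l, its copy in heart and skeletal muscle, was at -0.11, -0.16 and 0.06 in naïve CC and between -0.14 and 0.13 after cuprizone, with a difference of 0.06 (SE 0.10, adjusted p = 0.74). The naïve values of Rpl3 stood clear of the treated ones, and those of Rpl3l were mixed among them. Rpl39 fell by 0.62 (SE 0.14, adjusted p = 0.0015), while its testis-enriched copy Rpl39l differed by -0.14 (SE 0.09, adjusted p = 0.29). Rpl7 fell by 0.45 (SE 0.09, adjusted p = 0.00062), and Rpl7l1 differed by -0.15 (SE 0.08, adjusted p = 0.16). The difference between the 2 genes of a pair was not itself tested.

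In other pairs both genes were lower. Rpl22 fell by 0.32 (SE 0.08, adjusted p = 0.0057) and Rpl22l1, whose mRNA Rpl22 is known to repress, by 0.64 (SE 0.17, adjusted p = 0.0058). Rps27 fell by 0.28 (SE 0.09, adjusted p = 0.019) and Rps27l, known as a p53 target, by 0.35 (SE 0.12, adjusted p = 0.029). The X-linked Rps4x fell by 0.47 (SE 0.11, adjusted p = 0.0016). For its copy Rps4l the fitted difference was -0.67 (SE 0.22, adjusted p = 0.024), but its naïve values of -0.19, -0.45 and 0.85 overlapped the treated range of -0.94 to -0.23, with 1 high naïve library. Rps27 shares 98.7% of its 40-base words with other genes, so its reads may be split among them. Rpl10l was not among the genes of the chronic tables and has no value here.

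The members not called in the average numbered 5: Rpl7a, Rpl7l1, Rpl39l, Rpl32l and Rpl3l. Rpl7a was at the edge, with a difference of -0.36 (SE 0.14, adjusted p = 0.055), and Rpl32l was at -0.10 (SE 0.12, adjusted p = 0.60). Among the members the spread between libraries of a group in CC, as a pooled SD, ran from 0.03 to 0.42 with a median of 0.12. Across the 12 CC libraries, 73 of 83 members followed the library's member median with r over 0.9, and the lowest r was -0.36, which describes genes that share libraries and scaling. Across the members with a RefSeq promoter the CC difference had a median of -0.55 for the 31 with a tract and -0.57 for the 31 tested without one, and the difference between them was not tested.

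**Figure D2:**
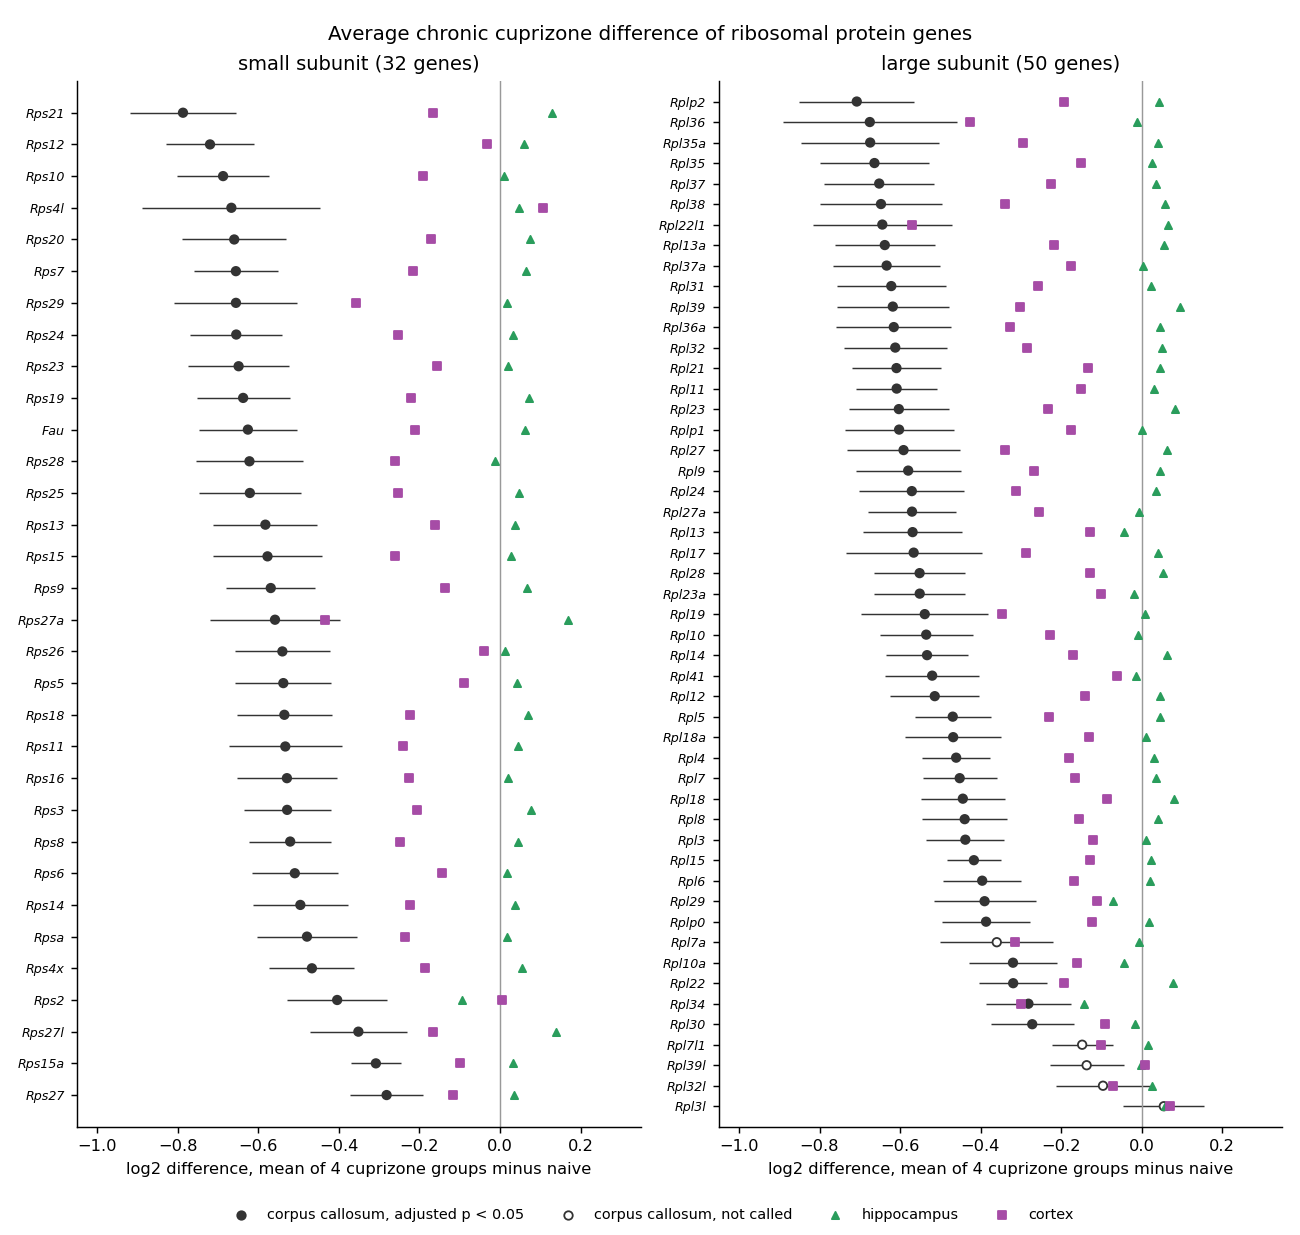
Average log2 difference between the 4 chronic cuprizone groups and naïve for small (left) and large (right) subunit genes, 1 small subunit gene not shown, with the standard error for CC and points for HP and CTX. In CC all small subunit genes plotted and 45 of 50 large subunit genes are called lower, while Rpl3l, Rpl32l, Rpl39l and Rpl7l1 lie nearest to 0 and the HP values lie around 0.

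Ribosomal protein transcripts are short, so genes of like length were set beside them. A total of 5219 other genes had a transcript length between 391 and 1920 bases, the range of the central 90% of the members. In the CC average their median was -0.13, with 1508 (28.9%) lower, against -0.55 and 78 of 83 for the members. Of these, the 1122 genes between 560 and 975 bases, the middle of the members' range, had a median of -0.19 with 38.1% lower, and the 654 genes of like length and like acute level had a median of -0.28 with 64.2% lower. Each narrower match moved nearer to the members without reaching their median.

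Transcript length moved with treatment in these libraries. Within each naïve CC library, the Spearman correlation between a gene's value and its length was -0.39 to -0.31, and within each treated CC library it was -0.01 to 0.15. RNAs retained in the nucleus moved the other way: 8 of 10 were higher in the CC average (median 0.83), among them Malat1 by 1.94, Snhg11 by 1.33 and Meg3 by 1.32, and their mean level was -0.61 to -0.19 in naïve CC and 0.23 to 0.57 after cuprizone. After each library was corrected for its relation to length and GC content, with the members left out of the curve, the member median of the CC average was -0.40 and 70 members were lower (30 small and 40 large), against 13.9% of all genes. The part of RNA quality or of the naïve CC libraries in the difference was not tested.

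**Figure D3:**
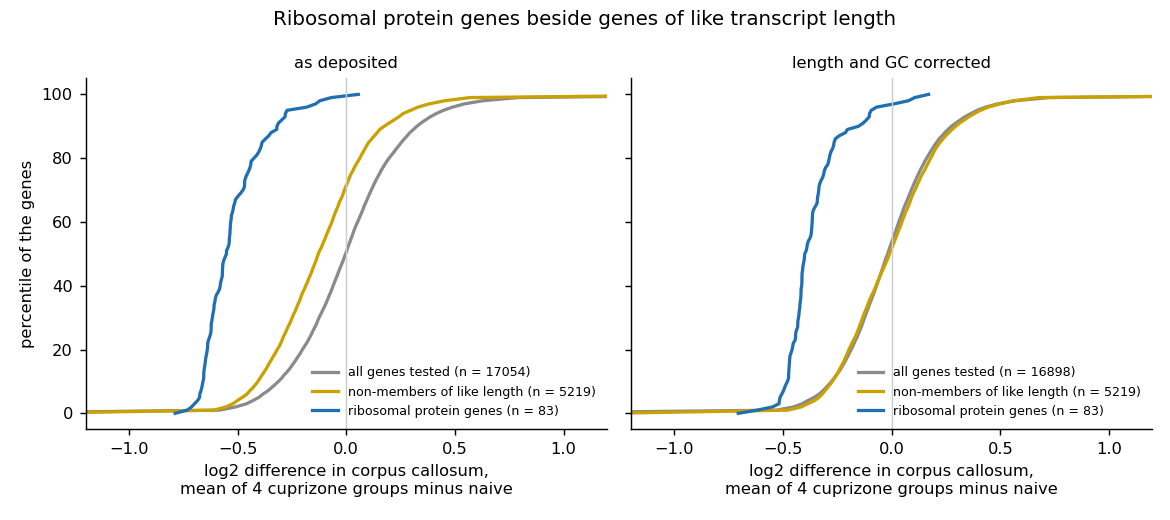
Cumulative percentile of the genes by their average log2 difference in CC, for the ribosomal protein genes and for genes matched on transcript length, before and after the correction for length and GC content. The members' median of -0.55 lies below that of the genes of like length, -0.13, and after the correction it lies at -0.40.

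Other genes of protein synthesis and of short mRNAs were read from lists set beside the members. Over all genes 14.5% were lower and 13.7% higher in the CC average. In the CC average 5 of 7 elongation factors were lower (median -0.32), led by Eef1b2 at -0.55, Eif5a at -0.43 and Eef1g at -0.37. Of 35 initiation factors 18 were lower and 1 higher (median -0.18), with Eif1b at -0.59, Eif1 at -0.54 and Eif3f at -0.48. Of 18 other mRNAs with a known TOP tract 12 were lower and 1 higher (median -0.34), with Tpt1 at -0.64 and Snhg8 at -0.58. Factors that build ribosomes went both ways, with 13 of 35 lower and 8 higher (median -0.06): Npm1 was at -0.52, Heatr1 at 0.52 and Nat10 at 0.51. Cytosolic tRNA synthetases, which have long mRNAs, had a median of 0.01, with 5 of 20 higher, such as Mars at 0.32, and 2 lower, such as Dars at -0.30.

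Genes of the mitochondrion were lower along with the cytosolic ribosome. Of the 68 respiratory chain genes 62 were lower (median -0.46), with Cox6c and Ndufa13 at -0.61 each, and of the 77 mitochondrial ribosomal protein genes 60 were lower (median -0.34). Markers of mature oligodendrocytes moved differently in time: 13 of 15 were lower at 12wk (median -1.14), against 9.65% of all genes. In the average of the 4 groups 2 of 15 were lower (median -0.22), Mbp at -0.65 and Mobp at -0.55, near the share of all genes (14.5%). Their mean level ran from 0.39 to 1.48 in naïve CC and from -0.29 to 1.35 after cuprizone, so the libraries overlapped where those of the ribosomal protein genes did not.

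After return to normal diet the members were still below naïve in each group. The median difference from naïve was -0.51 at 12+4wk with 50 members lower (7.14% of all genes), -0.59 at 12+8wk with 72 lower (9.32%) and -0.48 at 12+12wk with 41 lower (7.91%). No member was called higher, against 6.55%, 9.63% and 8.33% of all genes. Rps21 had the largest difference at 12+4wk and 12+8wk, and Rpl22l1 at 12+12wk. The small subunit medians were -0.54, -0.61 and -0.48, and those of the large subunit -0.49, -0.59 and -0.46. Against 12wk the members' medians were 0.11, 0.03 and 0.14, with 0 members called in each by limma and 0 at an unadjusted p below 0.05. Of all genes 0.762%, 0.674% and 2.74% were called higher and 0.0469%, 0.0821% and 1.48% lower. At an unadjusted p below 0.05 there were 11.1%, 7.68% and 15.8% of all genes. Every library lay above both 12wk libraries for 55 of the 83 members at 12+4wk (25.1% of all genes), for 8 at 12+8wk (14.3%) and for 36 at 12+12wk (24.3%). With sex as a covariate, since the 12+12wk libraries were all female, the 12+12wk median against naïve was -0.48 with 38 members lower (7.38% of all genes). All of these comparisons share the CC naïve or 12wk libraries.

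These counts leaned on single libraries where a group held 2. At 12+4wk 1 of 83 members was called without replicate 1 (0.88% of all genes lower) or without replicate 2 (1.11%), 9 without CC naïve replicate 1 (6.15%) and 20 without naïve replicate 3 (3.33%). At 12+12wk 14 were called without replicate 1 (2.77%), 1 without replicate 2 (3.83%), 10 without naïve replicate 1 (7.53%) and 15 without naïve replicate 3 (4.52%). The share called among the members was then near that of all genes at 12+4wk without replicate 1 or 2, and below it at 12+12wk without replicate 2. Without naïve replicate 1 it stayed above that of all genes in both groups, but much nearer to it than in the full fit. At 12+8wk, with 3 libraries, the counts stayed between 49 and 72, against 4.63% to 7.45% of all genes lower. The medians over all these fits ran from -0.67 to -0.35.

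In HP no member passed the test between cuprizone and naïve. The median was -0.02 at 12wk, -0.03 at 12+4wk, 0.16 at 12+8wk and 0.03 at 12+12wk, and 0.04 in the average, with 0.04 for the small and 0.03 for the large subunit. For genes of like length the mean library median was 0.07 in naïve HP and 0.05, 0.05, 0.10 and 0.10 from 12wk to 12+12wk. In the average 0 members were called by limma, as were 0% of all genes. None was below an unadjusted p of 0.05, against 1.04% of all genes. By group 0 were called too, while of all genes 0.0176% were called higher at 12wk and 0.00586% higher and 0.0997% lower at 12+12wk. At an unadjusted p below 0.05 there was 1 member at 12wk and 0 at the other times, against 3.59%, 1.81%, 2.94% and 6.29% of all genes from 12wk to 12+12wk. At 12+8wk both libraries were above all naïve ones for 68 of the 83 members, against 16.3% of all genes. Replicate 2 of that group was low in hippocampal markers. Against 12wk the HP medians at 12+8wk and 12+12wk were 0.17 and 0.06, with 0 members called, against 0% and 1.41% of all genes higher and 0% and 1.16% lower. The members' median over the 13 libraries ran from 0.25 to 0.59, with naïve libraries at 0.32, 0.45 and 0.50. Rps21 was at -0.07, 0.08 and 0.15 in naïve HP, at 0.28, 0.04 and 0.18 at 12wk, at 0.44, 0.11 and -0.15 at 12+4wk, at 0.24 and 0.29 at 12+8wk and at 0.22 and 0.08 at 12+12wk. Only at 12+8wk did the Rps21 values lie wholly above naïve HP. Without the 8 libraries in which RNAs of both sexes were raised the median was -0.0077 at 12wk, -0.0145 at 12+4wk and 0.0375 at 12+12wk, and the average of these groups was 0.0070, with 0 called in each.

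In CTX the members leaned lower after cuprizone without passing the test. The median was -0.19 at 12wk, -0.24 at 12+4wk, 0.03 at 12+8wk and -0.37 at 12+12wk, and -0.19 in the average, with -0.21 for the small and -0.17 for the large subunit. Genes of like length leaned the same way. Their mean library median was -0.11 in naïve CTX and -0.15, -0.17, -0.08 and -0.22 from 12wk to 12+12wk. In the average 0 members were called by limma, against 0.0293% of all genes lower and 0.041% higher, and 36 members had an unadjusted p below 0.05, against 12.9% of all genes. By group 0 were called at 12wk, 12+4wk, 12+8wk and 12+12wk, while 0.539%, 0.00586%, 0% and 0.17% of all genes were called lower and 0.416%, 0.00586%, 0% and 0.0586% higher. At an unadjusted p below 0.05 there were 19, 28, 0 and 56 of the 83 members, all lower, against 9.42%, 6.62%, 4.16% and 10.4% of all genes lower at that threshold. Against 12wk no member was called at 12+4wk (0.0176% of all genes higher, 0.0352% lower) or at 12+8wk (0.0586% higher, 0.0645% lower), where 1 and 22 members had an unadjusted p below 0.05, against 7.69% and 11.5% of all genes. Rps21 was at -0.35, 0.01, -0.22 and -0.43 in naïve CTX, at -0.41, -0.43 and -0.53 at 12wk, at -0.50, -0.40 and -0.43 at 12+4wk, at 0.44, -0.38 and -0.60 at 12+8wk and at -0.53 and -0.62 at 12+12wk. One Rps21 value, in 12+8wk replicate 1, was above all naïve ones, and the others ran from -0.62 to -0.38, across the lower end of the naïve range.

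The count of calls moved most without that library. The member median of CTX 12+8wk replicate 1 was -0.58, those of naïve replicates 2 and 3 were -0.88 and -0.96, and those of the other 12 cortical libraries ran from -1.56 to -1.16. Its correlation with transcript length was -0.21, against 0.13 and 0.20 for the 2 naïve libraries and 0.35 to 0.48 for the others. Without it the average median was -0.25 and 39 members were lower (17 small and 22 large), against 3.55% of all genes. They were led by Rpl22l1 at -0.65 (SE 0.13, limma adjusted p = 0.0084), Rps27a at -0.50 and Rps29 at -0.45. The member median of 12+8wk replicate 1 was the highest of the cortical libraries, so leaving it out lowers the treated side by that choice. Naïve replicates 2 and 3, the next highest, were kept, so these calls are no separate support for a lower level. Without CTX 12+12wk replicate 2, 1 member was called (0.0528% of all genes), and without any other cortical library 0 were. Between 12+12wk and 12wk, Rpl15 was higher by 0.32 (SE 0.09, adjusted p = 0.042, against 2.52% of all genes higher) and Rps27l lower by 0.57 (SE 0.17, adjusted p = 0.043, against 2.17% lower). Of the 83 members these 2 were called with groups apart, 1 in each direction. That is not more than the share over all genes, so it says nothing about the family.

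For Rpl15, CTX 12wk libraries were at -1.17, -1.18 and -1.04 and 12+12wk libraries at -0.87 and -0.74, with naïve at -0.93, -0.72, -0.90 and -0.77. For Rps27l the 12wk libraries were at -0.48, -0.39 and -0.31 and the 12+12wk libraries at -1.32 and -0.60. The 2 groups did not overlap for either gene, and the Rps27l difference came largely from 1 library. Without CTX 12wk replicate 1 or 2 both calls were lost, and likewise without 12+12wk replicate 1. The Rps27l call was also lost without 12wk replicate 3, and the Rpl15 call without 12+12wk replicate 2.

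The average cuprizone difference was set between regions in the same fit. CC minus HP had a median of -0.60 on the log2 scale, with 64 members called lower (28 small, median -0.61, and 36 large, median -0.55), against 6.25% of all genes called lower and a median of -0.14 for genes of like length, of which 13.2% were lower. The largest were Rps21 at -0.92 (SE 0.19, adjusted p = 0.0024), Rps12 at -0.78 (SE 0.15, adjusted p = 0.002) and Rplp2 at -0.75 (SE 0.20, adjusted p = 0.015). Without the 8 mixed HP libraries the median was -0.55 and 0 members were called (0.0117% of all genes lower), with 1 or 2 libraries left in each HP group and none at 12+8wk. Without HP naïve replicate 1 or 2, 19 (2.25% of all genes) and 36 (2.86%) were called, and without CC naïve replicate 1 or 3, 21 (4.47%) and 42 (3.84%).

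Between CC and CTX the average difference had a median of -0.32, with 8 members called lower (5 small and 3 large), against 2.98% of all genes. They included Rps12 at -0.69 (SE 0.15, adjusted p = 0.0047), Rps21 at -0.62 (SE 0.18, adjusted p = 0.029), Rps26, which contacts mRNA at the exit channel, at -0.50 (SE 0.16, adjusted p = 0.044), Rps10 at -0.50, Rpl21 at -0.48, Rpl11 at -0.46 and Rpl15 at -0.29. Leaving out 1 library moved this count to 1 without CC naïve replicate 1 (2.18% of all genes) or 3 (1.5%) or CTX naïve replicate 1 (2.71%), to 2 without CTX naïve replicate 4 (2.47%), and to 18 and 37 without CTX 12+8wk replicates 1 (4.03%) and 3 (5.83%). It was 3 or 4 without either CC 12wk or CC 12+4wk library, CC 12+8wk replicates 1 or 2, CC 12+12wk replicate 2, CTX 12+4wk replicate 3 or CTX 12+12wk replicate 2. Between HP and CTX the median was 0.24 with 0 called by limma, as for all genes (0%), and 7 had an unadjusted p below 0.05, against 5.91% of all genes. Without the mixed HP libraries it was 0.28, again with 0 called.

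The naïve regions were also set against each other, with the same naïve libraries that enter the averages above. In naïve CC 13 members were higher than in naïve HP (10 small and 3 large), against 8.89% of all genes, with a median of 0.32, and of 0.33 and 0.26 by subunit. The genes with the largest differences were Rps21 at 0.62 (SE 0.16, limma adjusted p = 0.0063), Rps20, of the small subunit head, at 0.52 (SE 0.16, adjusted p = 0.02) and Rpl13a, a large subunit protein that interferon-γ releases from the ribosome in human monocytic cells, at 0.49. Fau was at 0.48 and Rps19 at 0.40. The count was 0 without CC naïve replicate 1 (5.66% of all genes higher), 7 without CC naïve replicate 3 (9.17%), 1 and 5 without HP naïve replicates 1 (5.89%) and 2 (6.53%), and 4 without the mixed HP libraries (5.98%).

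Against naïve CTX the members were far higher in naïve CC, by a median of 1.82 (small 2.00, large 1.64), with 78 of 83 higher against 21.7% of all genes and a median of 0.20 for genes of like length, of which 39.9% were higher. In naïve HP they were higher by 1.42 (small 1.73, large 1.38), with 75 of 83 higher against 20.9% of all genes, and without the mixed HP libraries by 1.39, with 72 higher against 15.1%. These comparisons set longer paired reads against shorter ones, and region and read length cannot be told apart. The values follow for the genes at both ends.

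Rpl17 was at 1.55, 1.27 and 1.39 in naïve CC, at 0.88, 1.00 and 1.08 in naïve HP and at -3.41, -2.67, -2.88 and -3.54 in naïve CTX. Rpl21 was at 1.42, 1.10 and 1.32 in CC, 0.94, 1.07 and 1.16 in HP and -3.11, -2.87, -2.91 and -3.36 in CTX. Every cortical value of both genes was far below all others. The differences between CC and CTX were 4.53 (SE 0.19, adjusted p = 5.3e-17), a fold of 23.1, for Rpl17, and 4.34 (SE 0.13, adjusted p = 6.5e-21) for Rpl21, and Rpl41, which encodes one of the shortest proteins known, followed at 3.33 (SE 0.13). In the comparison of HP with CTX the first were Rpl21 at 4.12, Rpl17 at 4.11 and Rpl29 at 3.14.

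At the other end, Rpl3l was at -0.11, -0.16 and 0.06 in naïve CC, 0.09, -0.05 and -0.09 in HP and -0.34, 0.14, -0.23 and 0.15 in CTX, and the 3 regions overlapped, with a CC minus CTX difference of 0.00. Rpl7l1 differed by 0.14, Rpl39l by 0.20 and Rpl32l by 0.30. Rps27 differed by 0.38 (SE 0.10, adjusted p = 0.0036), with groups that overlapped. Rpl26 was at the lowest value of its row in all 15 CTX libraries and in 0 of the CC and HP libraries, and was not tested. Rpl39l was at its lowest value in 4 CTX libraries and 1 CC library.

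The share of a member's sequence that other genes also hold was set beside these differences, because reads of different length can be placed differently among copies. As a measure, the share of a transcript's 40-base words found in another gene of the annotation was taken. In 3 bins of this share, from 0% to 42.8%, 43.2% to 62.7% and 66.0% to 98.7%, with 28, 27 and 28 genes, the median of naïve CC minus CTX was 0.97, 2.03 and 2.10, and that of HP minus CTX was 0.90, 1.66 and 1.75. Between CC and HP, which share a read length, it was 0.29, 0.34 and 0.28, and for the CC cuprizone average -0.55, -0.59 and -0.54. Across the 83 members Spearman's rho with the share was 0.47 for CC minus CTX, 0.51 for HP minus CTX, -0.04 for CC minus HP and -0.08 for the CC average, as a description of genes that share libraries. Rpl17 shared words with 63 genes and Rpl21 with 95, and Rpl3l with 0. The part of read placement in the cortical levels was not tested.

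**Figure D4:**
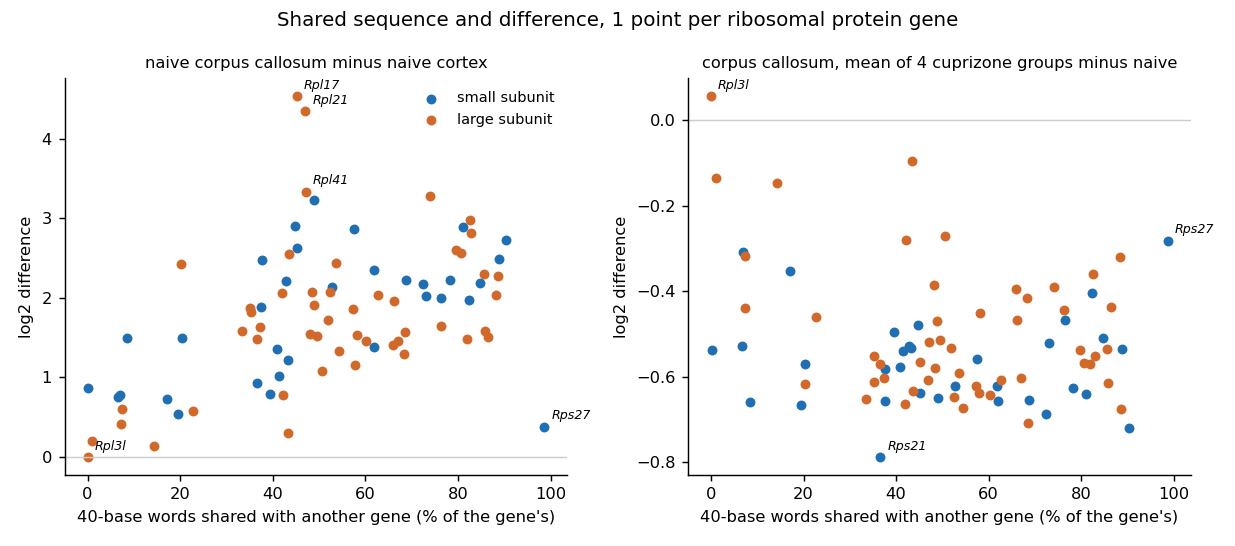
For each ribosomal protein gene, the share of its 40-base words that another gene holds (x axis, percent) against the log2 difference of naïve CC minus naïve CTX and of the CC cuprizone average minus naïve. The difference from CTX is larger for members with more shared words, with a rho of 0.47, and the difference with cuprizone is flat, with a rho of -0.08.

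In the acute arm, members leaned higher at 5+1wk, and 0 were called. Relative to each gene's mean, the member median was -0.20 to -0.05 in the 3wk libraries, 0.02 to 0.39 in the 5+1wk libraries and -0.24 in the naïve one, so the groups did not overlap. The median was 0.09 for 3wk minus the naïve library (small 0.09, large 0.10), 0.48 for 5+1wk minus naïve (small 0.48, large 0.50) and 0.35 for 5+1wk minus 3wk (small 0.35, large 0.34). Limma called 0 of 77 members in each, against 0%, 0.00688% and 0% of all genes called higher, with 0, 12 and 31 members below an unadjusted p of 0.05, all higher, against 2.94%, 3.29% and 11% of all genes higher at that threshold. Every 5+1wk library was above every 3wk library for 40 members, against 20.9% of all genes. Genes of like length had medians of 0.02, 0.22 and 0.18. The labels and the study's supplementary table name the acute columns differently, and these values follow the table. In the order of the labels the medians of 5+1wk minus naïve and minus 3wk were 0.10 and 0.046. The library read here as naïve had a mean of -1.11 for markers of microglia and 0.99 for those of mature oligodendrocytes. The library that the labels call naïve, read here as 3wk replicate 1, had 0.30 and -0.33.

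On the deposited log2 scale Rps21 was at 10.81, 10.61 and 10.66 at 3wk, at 11.80, 11.32 and 11.61 at 5+1wk and at 10.91 in the naïve library. Rplp2 was at 10.42, 10.28 and 10.37, then 11.50, 10.79 and 11.15, and 10.47 in naïve. Fau was at 11.55, 11.42 and 11.39, then 12.50, 11.64 and 12.03, and 11.30 in naïve. For these 3 genes every 5+1wk library was above every 3wk library and the naïve one. The difference of Rps21 between 5+1wk and 3wk was 0.88 (SE 0.17, limma adjusted p = 0.14).

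Other members split within the 5+1wk group. Rpl22l1 was at 7.73, 7.71 and 7.85 at 3wk, at 4.58, 7.65 and 8.29 at 5+1wk and at 7.78 in naïve. Rpl39 was at 9.89, 9.92 and 9.94, then 8.05, 10.32 and 10.69, and 9.93 in naïve. Rps24 was at 12.05, 11.93 and 12.02, then 10.58, 12.26 and 12.63, and 12.03 in naïve. The low value was each time that of 5+1wk replicate 1, which lay under all other acute libraries for these genes.

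Against the mean of the other 5+1wk libraries, the log2 difference of replicate 1 was -3.39 for Rpl22l1, -2.46 for Rpl39, -1.86 for Rps24, -1.45 for Rps4x, -1.43 for Rps27a, -1.32 for Rpl5, -1.15 for Rps15a and -1.12 for Rpl7, and it was higher for 47 of the 77 members, by 0.89 for Rpl18 and 0.82 for Rpl36. The 8 lowest had a GC content of 39.8% to 48.9%, against a median of 51.8% over the members. Across the 77 members Spearman's rho of this difference with GC content was 0.78, and across 14363 other genes 0.84. Without replicate 1, limma called 6 members higher at 5+1wk than at 3wk, against 4.53% of all genes, among them Rps21 by 0.77 (SE 0.11, adjusted p = 0.023), Rpl36 by 0.67, Rplp2 by 0.61, Rpl39 by 0.59 and Rpl35a by 0.44. The median was then 0.31, and 0.42 against naïve with 0 called.

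**Figure D5:**
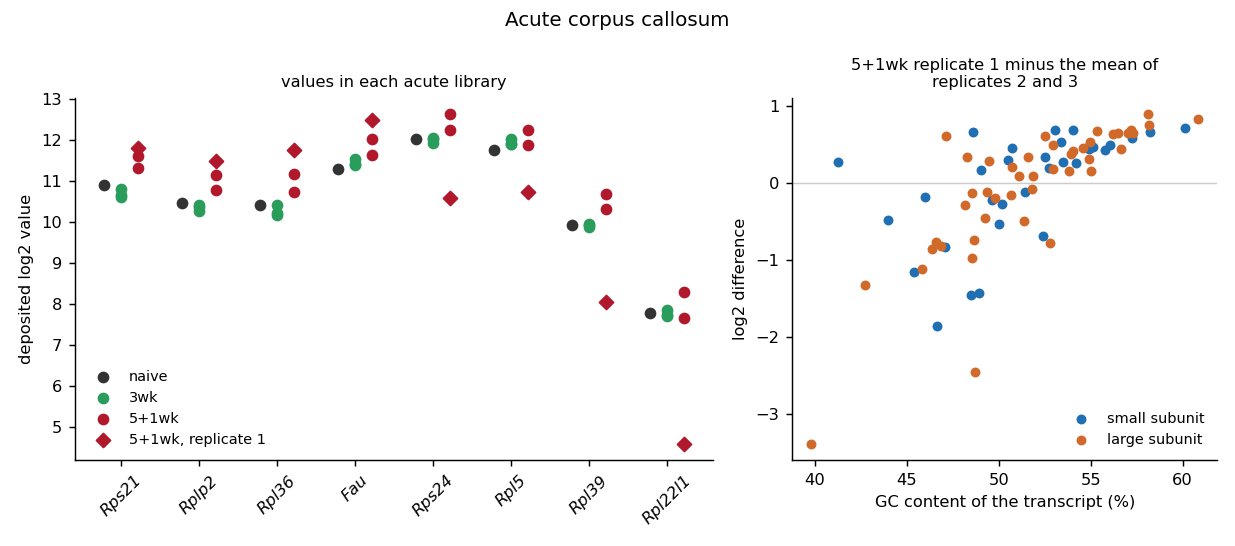
Left, deposited log2 values of selected ribosomal protein genes in each acute library by group; right, for each member the difference of 5+1wk replicate 1 from the mean of replicates 2 and 3 against the GC content of its transcript. Rpl22l1 and Rpl39 are low in replicate 1 alone, at 4.58 and 8.05, and the difference rises with GC content (rho 0.78).

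Levels per transcript length could be set beside each other between members only in the acute table, which comes from the shorter reads. The length is the median over a gene's transcripts, and was 5130 bases for Rps15a and 3706 for Rps20. The part of read placement among copies and of the length used in these levels was not tested, so they do not rank the members by expression. The mean log2 value per kilobase was 13.7 for Rplp1, 13.4 for Rpl41 and 13.3 for Rps29, and 1.93 for Rpl3l and 1.07 for Rpl39l. The lowest of all was Rpl10l at -4.25. Rpl7l1, which like Rpl3l and Rpl39l was not called in chronic CC, was at 8.30, while Rpl30 at 2.93 and Rpl34 at 3.01 were low here and were called lower in the CC average. Rpl26 was listed at 0 in the acute table, and Rpl10l, Rpl3l, Rpl39l, Rpl30 and Rpl34 were below the filter of the acute tests.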

How the data were processed

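The authors prepared stranded polyadenylated RNA libraries from perfused, dissected tissue, mapped reads with TopHat2 2.0.13 to GRCm38/mm10 and scaled them with DESeq2 (version not given in the sources used here). The deposited values are log2 values, the chronic ones centred for each gene by the authors. No counts were used. The 27 rows of each table whose names are dates were left out, and 0 columns of per-sample values went unused. The labels of the acute columns conflict with the study's supplementary table. The table's order was used, and the labels' order was an alternative. Genes were tested with limma 3.58.1 (R 4.3.3), 1 fit for the 7 acute libraries (mean linear value of at least 10) and 1 for the 40 chronic libraries (at most 10 at the gene's lowest value), with Benjamini-Hochberg adjustment over all genes and calls below 0.05. A legend of the study speaks of 3 mice for acute time points, and the sources do not state separate animals for the chronic replicates, so there p-values measure the spread between these samples, and the lone acute naïve library is assumed to vary like the others. Lengths and shared words come from GENCODE M21 transcripts, matched by symbol for 98.5% of acute and 98.7% of chronic genes, and promoters from RefSeq. The members, lists and tests were chosen with earlier results of these data known. Named genes are the 3 members with the largest called, non-overlapping difference in each direction, called members against the family's direction, the P-stalk genes, Rpsa, Fau, paralogue pairs and 6 members of known role. Other members were named after their values were seen. The values of 1 small subunit member are not reported here, although it is counted in the totals. The fits were tested on simulated data. Alternatives were quantile normalization, equal medians, a length and GC correction (loess span 0.3), no filter or a stricter one, library weights, a swapped variance trend, region-only and group-only fits, a replicate block and leaving out libraries.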

Additional observations from a re-analysis of the deposited data

Results flagged for a closer look

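In the average cuprizone difference, CC differed from HP for 24 of the 35 named members (limma, adjusted p below 0.05 for the difference itself), all lower in CC, against 6.25% of all genes. Some of these were named for their large difference, and without the 8 mixed HP libraries 0 members of the family were called. The values on the log2 scale were -0.92 for Rps21, -0.78 for Rps12, -0.75 for Rplp2, -0.73 for Rps20, -0.71 for Rpl35a, -0.71 for Rpl39, -0.71 for Rps19, -0.71 for Rpl22l1, -0.71 for Rpl38, -0.69 for Rpl13a, -0.69 for Fau and -0.67 for Rps25. They were -0.65 for Rpl21, -0.64 for Rpl11, -0.60 for Rplp1, -0.55 for Rps26, -0.53 for Rpl10, -0.52 for Rps4x, -0.52 for Rpl5, -0.51 for Rpl41, -0.49 for Rpl7, -0.45 for Rpl3, -0.44 for Rpl15 and -0.40 for Rpl22. Between CC and CTX the difference was called for 8 members, among them Rps10 at -0.50 and, of the 35, Rps12 at -0.69, Rps21 at -0.62, Rps26 at -0.50, Rpl21 at -0.48, Rpl11 at -0.46 and Rpl15 at -0.29.

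In naïve CTX, the only group with 4 libraries, 1 of 38 values tested had a library far from the others: Rpl39l, a low gene, at -0.31 in replicate 2. Chance gives about 1 such value in 20.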

How the results depend on the processing

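Of 383 medians of the members under another setting, fits without 1 library included, 373 moved by less than the spread between replicates. That spread was the pooled SD of the library medians: 0.15 in the acute arm, 0.11 in CC, 0.08 in HP and 0.22 in CTX. Where regions were compared, the largest was taken. In CTX it exceeded the size of the average cuprizone difference, so the count says little there. With the length and GC correction the median was -0.44 for CC 12wk, -0.40 for the CC average, -0.42 for CC against HP, 1.49 and 1.18 for naïve CC and HP against CTX, and 0.18 and 0.10 for acute 5+1wk against naïve and 3wk. Naïve CC against CTX was 1.58 under quantile normalization. In the order of the labels acute 5+1wk was 0.10 above naïve and 0.046 above 3wk. Rps27 in naïve CC against CTX turned from 0.38 to -0.0084 (limma adjusted p = 0.96) with the length and GC correction. The cause of these shifts was not tested. Counts of members called moved by more than 1.5 times as follows. CC against HP in the average effect went from 64 to 38 with a replicate block (3.34% of all genes called lower) and to 0 without the mixed HP libraries (0.0117%). CC against CTX went from 8 to 58 under quantile normalization (7.39%) and to 5 with library weights (2.67%) or a swapped variance trend (2.97%). Naïve CC against HP went from 13 to 25 with the length and GC correction (10.8% of all genes higher), 42 with library weights (14.9%), 23 with only those groups fitted (8.53%) and 4 without the mixed libraries (5.98%). Acute 5+1wk against 3wk went from 0 to 23 higher with library weights (7.09%) and 1 with the length and GC correction (0.762%). With sex as a covariate 112 differences of named members stayed on their side of the threshold and 3 no longer passed. The CTX calls of Rpl15 and Rps27l were lost under quantile normalization, the replicate block and the fits of that region or those groups alone.

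Within a region, the replicate numbers shared by groups showed no clear pairing. Same-numbered libraries correlated above 0.1 in 1 of 3 acute, 8 of 21 CC, 6 of 23 HP and 6 of 26 CTX pairs. This check did not cover CC, HP and CTX pieces that may come from the same mouse. The comparisons between regions treat such libraries as independent. With the replicate block the median was -0.62 for CC 12wk with 58 lower, and -0.54 for the CC average with 72 lower. It was -0.57 for CC against HP and 1.97 for naïve CC against CTX. Naïve CC against HP then had 4 calls and CC against CTX 1. The share of all genes in this fit is given above for CC against HP alone, so the other counts lack that comparison. Depth is unknown without counts, and groups of 2 or 3 libraries limit every count given.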
